A study of Mus musculus with 6 samples.

Results

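The claudins and other tight junction genes Cldn1, Cldn3, Cldn4, Cldn7, Cldn10, Cldn12, Cldn18, Ocln, Tjp1 and F11r were followed in sorted mouse lung epithelium. The list holds 10 genes chosen by name, and 9 of them were analysed among 22239 genes; Cldn1 was not analysed here. RNA was sequenced in bulk from 3 cell populations in mice at 8 weeks of age, which gave 6 samples, 2 per population. Bronchioalveolar stem cells (BASC), which sit where the terminal bronchiole meets the alveoli, were sorted on both reporters, CCSP-mCherry+/SPC-YFP+. CCSP is the club cell secretory protein encoded by Scgb1a1, and SPC is surfactant protein C encoded by Sftpc. Alveolar type 2 (AT2) cells, the surfactant-making cells of the alveolus, were sorted as SPC-YFP+, and Club cells, secretory cells that line the bronchioles, as CCSP-mCherry+. All samples came from lung homogenates depleted of CD31 and CD45 bearing cells; each population was defined by these reporters and not by a junction protein.

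Tight junctions seal the gap between neighbouring epithelial cells near their apical side. Claudins are membrane proteins that polymerise into the strands of the junction, and the claudins present decide whether a strand blocks ions or forms pores for them. Occludin, encoded by Ocln, is a further strand protein, junctional adhesion molecule A (JAM-A), encoded by F11r, is an adhesion receptor beside the strands, and zonula occludens 1 (ZO-1), encoded by Tjp1, is the scaffold that ties them to actin. In the alveolus this barrier keeps fluid out of the airspace, and in mice loss of Cldn18 is known to alter it.

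Values are normalised read counts per gene, as deposited by the authors, given for replicate 1 and then replicate 2. The reads behind the values of a sample were estimated at between 10118863 and 18193721 from the spacing of low values, and the 3 reads that a value of 0 still permits were worth between 2.29 and 4.02 normalised counts, which covers counting error only. Differences were tested with limma on log2(value + 1) over 17721 genes, and a gene was called where its Benjamini-Hochberg adjusted p over all of them lay under 0.05. Whether replicates are separate animals is not stated in the labels, and p-values then cover the spread between these samples, which may be technical. In bulk RNA, fewer cells of a type and less RNA per cell cannot be told apart. A fold is given as the ratio of 2 group means; a log2 fold change is the fitted value with its standard error (SE), at n = 2 samples per group.

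The labels were first set beside markers of each cell type. Sftpc lay at 290809 and 307458 in BASC and at 301267 and 373742 in AT2 cells, against 240 and 224 in Club cells. Scgb1a1 lay at 43993 and 58791 in BASC and at 413 and 302 in AT2 cells, against 751642 and 760675 in Club cells. The sort chose cells on these reporters, so both genes only check the labels. Marker lists of other airway cell types were summed in each library. The sum over 7 ciliated cell markers was 945 and 808 in BASC and 714 and 770 in AT2 cells, against 5956 and 6006 in Club cells. The sum over 5 goblet markers was 418 and 517 in BASC and 68 and 37 in AT2 cells, against 73567 and 64330 in Club cells. Nearly all of the Club sum was Muc5b, which mouse Club cells also make. Muc5ac had 25 and 40 in BASC and 0 in both AT2 libraries, against 1370 and 1665 in Club cells. Agr2 was at 0 in all BASC and AT2 libraries, against 332 and 309 in Club cells. The sum over 3 basal cell markers was 32 and 73 in BASC and 79 and 14 in AT2 cells, against 595 and 195 in Club cells, and Krt5 was at 0 in both BASC libraries, in both AT2 libraries and in Club replicate 2. The 4 endothelial markers measured summed to between 11 and 104 in every library, and the 5 mesenchymal markers to between 11 and 141. The 2 neuroendocrine markers summed to at most 29. The 4 immune markers summed to 254860 and 262774 in BASC and to 178505 and 180101 in AT2 cells, against 2346 and 1209 in Club cells, nearly all of it Lyz2, which AT2 cells also express. The part of these cell types in the results below was not tested.

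The genes fell into patterns that a plot of the 6 samples shows. Cldn18 was high in BASC and AT2 cells and low in Club cells, Cldn10 and Cldn4 were highest in Club cells, and Cldn3, Tjp1 and F11r lay close together in all 3 populations. Cldn7 and Ocln were highest in Club cells by smaller margins.

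**Figure D1:**
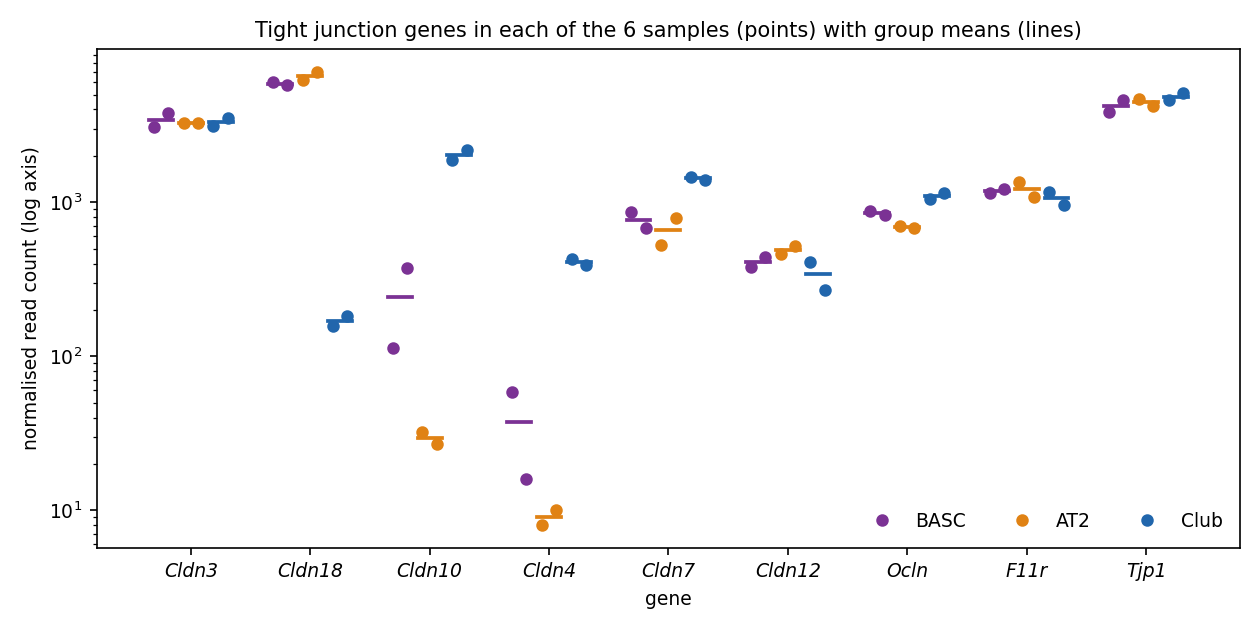
Normalised read count (log axis) of 9 tight junction genes in BASC, AT2 and Club samples; each point is 1 sample and each line a group mean over 2 samples. Cldn18 lies between 5777 and 7015 in BASC and AT2 samples and at 158 and 183 in Club samples, while Cldn10 lies at 1869 and 2173 in Club samples and at 373 or below in all others.

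The promoters of the genes that differed most are shown with that of Cldn3, the claudin that differed least. They are RefSeq start sites on GRCm38.p6 with 250 bases before and 50 after the start, and RefSeq entries matched all 9 genes. Capitals mark matches, on either strand, to the NKX2-1 core CTCAAG, the GC box GGGCGG of SP and KLF factors and the AP-1 site TGANTCA. None of these motifs overlapped another in the sequences shown. Cldn10 and Cldn18 each have a pair of RefSeq start sites, and gene-level counts do not say which was used. For Cldn18 the upstream site is printed, which is known in mice to start the lung form of the protein, while the downstream site starts the form of the stomach.
Cldn18, upstream site, minus strand, chr9:99717218-99717517: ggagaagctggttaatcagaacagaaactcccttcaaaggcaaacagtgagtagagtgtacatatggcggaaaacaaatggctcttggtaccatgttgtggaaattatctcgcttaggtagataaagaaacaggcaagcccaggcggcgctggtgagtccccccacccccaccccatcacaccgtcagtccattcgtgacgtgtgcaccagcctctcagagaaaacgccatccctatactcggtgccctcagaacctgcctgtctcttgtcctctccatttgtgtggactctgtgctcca
Cldn10, upstream site, plus strand, chr14:118787621-118787920: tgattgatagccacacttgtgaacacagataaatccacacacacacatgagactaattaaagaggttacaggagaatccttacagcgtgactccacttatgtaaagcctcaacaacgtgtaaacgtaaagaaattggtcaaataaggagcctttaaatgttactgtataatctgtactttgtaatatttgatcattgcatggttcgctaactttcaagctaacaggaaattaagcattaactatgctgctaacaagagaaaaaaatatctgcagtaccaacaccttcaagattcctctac
Cldn10, downstream site, plus strand, chr14:118854700-118854999: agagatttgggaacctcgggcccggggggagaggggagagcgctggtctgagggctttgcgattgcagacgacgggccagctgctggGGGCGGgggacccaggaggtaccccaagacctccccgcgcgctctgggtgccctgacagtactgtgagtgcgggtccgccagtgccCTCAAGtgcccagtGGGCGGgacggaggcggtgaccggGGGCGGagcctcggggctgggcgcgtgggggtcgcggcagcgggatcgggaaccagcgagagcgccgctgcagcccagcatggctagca
Cldn4, minus strand, chr5:134946885-134947184: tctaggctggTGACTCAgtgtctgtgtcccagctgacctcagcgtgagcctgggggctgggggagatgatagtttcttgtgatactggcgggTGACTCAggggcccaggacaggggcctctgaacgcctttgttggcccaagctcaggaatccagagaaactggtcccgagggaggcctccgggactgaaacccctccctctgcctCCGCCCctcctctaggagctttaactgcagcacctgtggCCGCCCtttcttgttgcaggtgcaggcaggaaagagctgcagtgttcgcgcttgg
Cldn3, plus strand, chr5:134985964-134986263: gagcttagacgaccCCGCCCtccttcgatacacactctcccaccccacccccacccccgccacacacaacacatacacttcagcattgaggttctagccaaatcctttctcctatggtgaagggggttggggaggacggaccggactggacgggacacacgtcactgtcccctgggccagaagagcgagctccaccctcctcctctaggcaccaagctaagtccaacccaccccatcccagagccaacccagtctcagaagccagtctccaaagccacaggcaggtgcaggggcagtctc

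The AP-1 site stood in the Cldn4 window at 2 places, and 7.81% of 32851 mouse promoters of this length held it. The GC box stood once in the Cldn3 window, at 2 places in that of Cldn4 and at 3 in the downstream window of Cldn10; 35.7% of all promoters held it. The NKX2-1 core stood once in the downstream Cldn10 window, and 15.9% of all promoters held it. Windows that are not shown held these motifs too. That of F11r, whose groups overlapped, had the AP-1 site, the NKX2-1 core and the GC box once each. The upstream window of Ocln had the NKX2-1 core once. The GC box also stood in windows of Cldn7, Cldn12, Ocln and Tjp1. The upstream windows of Cldn18 and Cldn10 held none of the 3 motifs. They had 52.0% and 36.0% G and C bases, against 72.0% in the downstream window of Cldn10 and a median of 52.7% over all promoters. A further 3 motifs were searched, the forkhead site TGTTTAC, the TATA box TATAAA and the E-box CACGTG, which 3.65%, 13.6% and 7.15% of all promoters held, and no window of the 9 genes held them.

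Cldn18 (ENSMUSG00000032473, chr9:99689461-99717267, GRCm38) encodes the claudin best known from lung and stomach. It had normalised read counts of 6021 and 5777 in BASC and of 6220 and 7015 in AT2 cells, against 158 and 183 in Club cells. Both alveolar-reporter populations lay far above Club cells, and the BASC samples lay just below the AT2 samples. Cldn18 was 34.6-fold higher in BASC than in Club cells (log2 fold change 5.11 ± 0.14, SE, limma adjusted p = 5.99e-06). It was 38.8-fold higher in AT2 than in Club cells (5.27 ± 0.14, limma adjusted p = 2.71e-06). Between BASC and AT2 cells the log2 fold change was -0.16 ± 0.14 (limma adjusted p = 0.680), with a 95% confidence interval from -0.49 to 0.17. BASC held 88.9% of the AT2 level of Cldn18 after subtraction of the Club level, with 90.7% and 87.0% in the 2 libraries. The median over 7 AT2 markers, calculated in the same way, was 88.8%, and they lay between Lamp3, at 67.9% and 58.1% in the 2 libraries, and Sftpa1, at 96.4% and 103.8%. These markers include Sftpc, which the sort selected for, at 86.2% and 91.1%. Cldn18 is also known in alveolar type 1 cells. The sum over 10 markers of that type was 18191 and 17802 in BASC and 17438 and 19856 in AT2 cells, against 8922 and 9695 in Club cells. Of these, Ager, the largest of the 10 in BASC, had 8336 and 8746 in BASC, 8105 and 9791 in AT2 cells, against 1390 and 1762 in Club cells, while Pdpn and Igfbp2 were at 0 in both BASC libraries and Clic5 had 2156 and 2191 in BASC, 845 and 1119 in AT2 cells, against 2934 and 3730 in Club cells.

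Cldn10 (ENSMUSG00000022132, chr14:118787908-118875489) encodes a pore-forming claudin with isoforms of different ion choice, and is used as a Club cell gene in mice. Its normalised read counts were 113 and 373 in BASC and 32 and 27 in AT2 cells, against 1869 and 2173 in Club cells. The groups did not overlap, and on the log2 scale the gap between replicates was 1.71 in BASC and 0.24 in AT2 cells, against 0.22 in Club cells. Cldn10 was 8.32-fold lower in BASC than in Club cells (log2 fold change -3.29 ± 0.54, limma adjusted p = 0.00967) and 68.5-fold lower in AT2 than in Club cells (-6.05 ± 0.54, limma adjusted p = 0.000372). Without a variance trend the call in BASC was lost (adjusted p = 0.0652). The log2 fold change between BASC and Club cells was -2.43 without BASC replicate 1 and -4.14 without BASC replicate 2. Between BASC and AT2 cells the ratio of the means was 8.24 and the difference was not called (2.76 ± 0.54, limma adjusted p = 0.0904, 95% confidence interval from 1.50 to 4.02); the value was 3.62 without BASC replicate 1 and 1.91 without BASC replicate 2. That difference passed at adjusted p = 0.0238 where only genes with at least 100 in 2 samples were tested. Over the 14 alternatives its adjusted p ranged from 0.0238 to 0.257.

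Cldn4 (ENSMUSG00000047501, chr5:134945119-134946934) encodes a sealing claudin of many epithelia. Normalised read counts were 59 and 16 in BASC and 8 and 10 in AT2 cells, against 431 and 393 in Club cells. These values rest on about 44 and 17 reads in BASC and 10 and 9 reads in AT2 cells, against 522 and 379 reads in Club cells. Cldn4 was lower in BASC than in Club cells (log2 fold change -3.69 ± 0.80, limma adjusted p = 0.0288) and 45.8-fold lower in AT2 than in Club cells (-5.37 ± 0.80, limma adjusted p = 0.00418). The call in BASC was lost without BASC replicate 2 (adjusted p = 0.0748), without Club replicate 1 (0.227), without Club replicate 2 (0.192) and without a variance trend (0.0560). Its log2 fold change was -4.60 without BASC replicate 1 and -2.78 without BASC replicate 2. Between BASC and AT2 cells it was not called (1.68 ± 0.80, limma adjusted p = 0.438), and the 95% confidence interval of the log2 fold change, from -0.21 to 3.57, spans both no difference and a large one.

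Cldn3 (ENSMUSG00000070473, chr5:134986214-134987472), a further sealing claudin, is the neighbour of Cldn4, with 39.3 kb between them and no annotated gene wholly inside that gap. The pair did not share a pattern. Cldn3 had normalised read counts of 3063 and 3795 in BASC and of 3290 and 3257 in AT2 cells, against 3148 and 3512 in Club cells. All 3 groups overlapped, and the largest of the 3 fitted differences was 0.06 on the log2 scale. The 95% confidence intervals ran from 0.830-fold to 1.31-fold for BASC over AT2 cells, from 0.817-fold to 1.29-fold for BASC over Club cells and from 0.784-fold to 1.24-fold for AT2 over Club cells. The antisense gene Wbscr25 shares exon bases with Cldn3, with values of 166 and 99 in BASC and of 75 and 44 in AT2 cells, against 59 and 72 in Club cells. The strand setting of the counting is not given in the sources used here, so reads of this pair may not have been told apart.

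Cldn7 (ENSMUSG00000018569, chr11:69964779-69967885) encodes a claudin that also lies along the lateral membrane. It had normalised read counts of 863 and 680 in BASC and of 530 and 794 in AT2 cells, against 1467 and 1399 in Club cells. BASC and AT2 samples overlapped, and both lay below the Club samples. Cldn7 was 2.16-fold lower in AT2 than in Club cells (log2 fold change -1.14 ± 0.23, limma adjusted p = 0.0159). This call was lost without AT2 replicate 1 (adjusted p = 0.0607), without Club replicate 1 (0.0718), without Club replicate 2 (0.0522) and without a variance trend (0.108). The difference between BASC and Club cells missed the threshold (-0.90 ± 0.23, limma adjusted p = 0.0518) and passed it under 6 of 14 alternatives, with adjusted p from 0.0204 to 0.238 over the 14. Cldn12 (ENSMUSG00000046798, chr5:5505015-5514873), a claudin linked to calcium transport in the gut, had 378 and 440 in BASC, 459 and 519 in AT2 cells, against 412 and 270 in Club cells. It was not called in any comparison, with limma adjusted p of 0.739 for BASC against AT2 cells, 0.588 for BASC against Club cells and 0.234 for AT2 against Club cells.

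Ocln (ENSMUSG00000021638, chr13:100496507-100552718) had normalised read counts of 880 and 826 in BASC and of 704 and 681 in AT2 cells, against 1042 and 1147 in Club cells. The 3 groups did not overlap, with BASC between the others. Ocln was 1.58-fold lower in AT2 than in Club cells (log2 fold change -0.66 ± 0.16, limma adjusted p = 0.0292), a call that was lost without any of AT2 replicate 1, AT2 replicate 2, Club replicate 1 or Club replicate 2, with adjusted p between 0.0724 and 0.261, and without a variance trend (0.164). BASC differed from AT2 cells by 0.30 ± 0.16 (limma adjusted p = 0.491) and from Club cells by -0.36 ± 0.16 (limma adjusted p = 0.225), and neither difference was called. F11r (ENSMUSG00000038235, chr1:171437535-171464603) had 1140 and 1220 in BASC, 1359 and 1085 in AT2 cells, against 1168 and 953 in Club cells. Tjp1 (ENSMUSG00000030516, chr7:65296165-65371239) had 3846 and 4623 in BASC, 4667 and 4215 in AT2 cells, against 4586 and 5098 in Club cells. For both genes every pair of groups overlapped, and none of the 95% confidence intervals reached below 0.701-fold or above 1.55-fold.

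**Figure D2:**
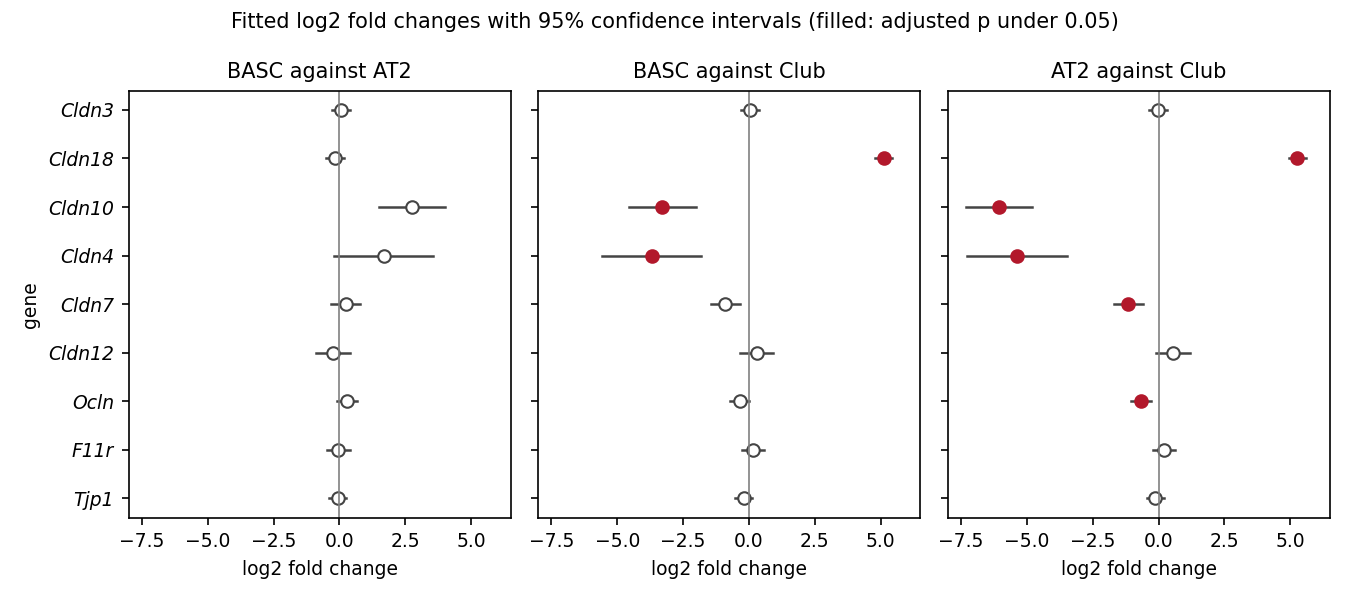
Fitted log2 fold change (x axis) of each tight junction gene in BASC against AT2, BASC against Club and AT2 against Club cells, as points with 95% confidence intervals from 2 samples per group; filled points have an adjusted p under 0.05. Cldn18 lies at 5.11 and 5.27 in the comparisons with Club cells, Cldn10 and Cldn4 lie on the other side of 0 there, and no point is filled between BASC and AT2 cells.

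By comparison, BASC and AT2 cells did not differ in a called way in any of the 9 genes, where 0.632% of all 17721 genes were called, 0.553% as higher in BASC and 0.079% as lower. At an unadjusted p under 0.05, limma found 1 of the 9, Cldn10, and the share of all genes at that cutoff was not calculated. In BASC against Club cells, 1 of the 9 genes was higher and 2 were lower, and 11.2% of all genes were called, 5.77% as higher and 5.42% as lower. Without a variance trend, the 2 lower calls in BASC were lost and the lower calls in AT2 cells numbered 2. In AT2 against Club cells, 1 was higher and 4 were lower, where 18.1% of all genes were called, 8.42% as higher and 9.71% as lower. The median log2 fold change of the 9 genes was 0.06 between BASC and AT2 cells, -0.20 between BASC and Club cells and -0.12 between AT2 and Club cells, and the medians of all genes were 0.00, -0.10 and -0.10. The median absolute log2 fold change of the 9 genes was 0.24, 0.36 and 0.66 in the same comparisons, against 0.49, 0.67 and 0.76 over all genes. Samples of the 2 groups did not overlap for 5 of the 9 genes between BASC and AT2 cells, for 5 between BASC and Club cells and for 6 between AT2 and Club cells, and over all genes this held for 37.2%, 54.0% and 58.0%. The comparisons share their samples, so they are not independent of each other.

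BASC were also compared with the midpoint of AT2 and Club cells on the log2 scale. Cldn18 was the only one of the 9 genes called, 2.47 ± 0.12 above the midpoint (limma adjusted p = 0.000426), where 1.61% of all genes were called, 1.29% as higher and 0.322% as lower. This call was lost without BASC replicate 1 or BASC replicate 2, with the value between 2.42 and 2.58 over all alternatives. Where 0 is the Club level and 1 the AT2 level on the log2 scale, BASC stood at 0.97 for Cldn18, 0.79 for Cldn7, 0.69 for Cldn4, 0.54 for Ocln and 0.54 for Cldn10. BASC replicates 1 and 2 stood at 0.97 and 0.96 for Cldn18 and at 0.48 and 0.61 for Ocln. They stood at 0.64 and 0.94 for Cldn7, 0.52 and 0.86 for Cldn4 and 0.68 and 0.40 for Cldn10, so these genes overlapped each other. The median over 1889 genes called between AT2 and Club cells by an absolute log2 difference of 2 or more was 0.76, with quartiles of 0.52 and 0.95. For the 712 of these higher in AT2 cells it was 0.81, with quartiles of 0.66 and 0.92. For the 1177 higher in Club cells it was 0.71, with quartiles of 0.45 and 1. Cldn7 and Ocln differed by less than 2 between AT2 and Club cells, so these genes are not like them in that respect.

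On the unlogged scale the Club-high junction genes were uneven between the BASC libraries. With AT2 cells as 0% and Club cells as 100%, Cldn10 stood at 4.19% and 17.2% in BASC replicates 1 and 2. Cldn4 stood at 12.4% and 1.74%, and Cldn7 at 26.1% and 2.33%. Cldn10 stood higher in replicate 2, and Cldn4 and Cldn7 stood higher in replicate 1. This measure leaves out the spread between AT2 libraries. For Cldn7 these had 530 and 794, on both sides of BASC replicate 2 at 680. The Cldn4 shares rest on about 44 and 17 reads in BASC. Ocln stood at 46.6% and 33.2%. The same measure for Scgb1a1, which the sort selected for, was 5.77% and 7.73%, and the median over 6 Club markers was 9.84% and 12.0%. These markers ranged from 1.41% for Scgb3a2 to 48.1% for Cckar over both libraries, so they did not stand at 1 common share. With 2 libraries the spread of the junction genes was not tested.

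**Figure D3:**
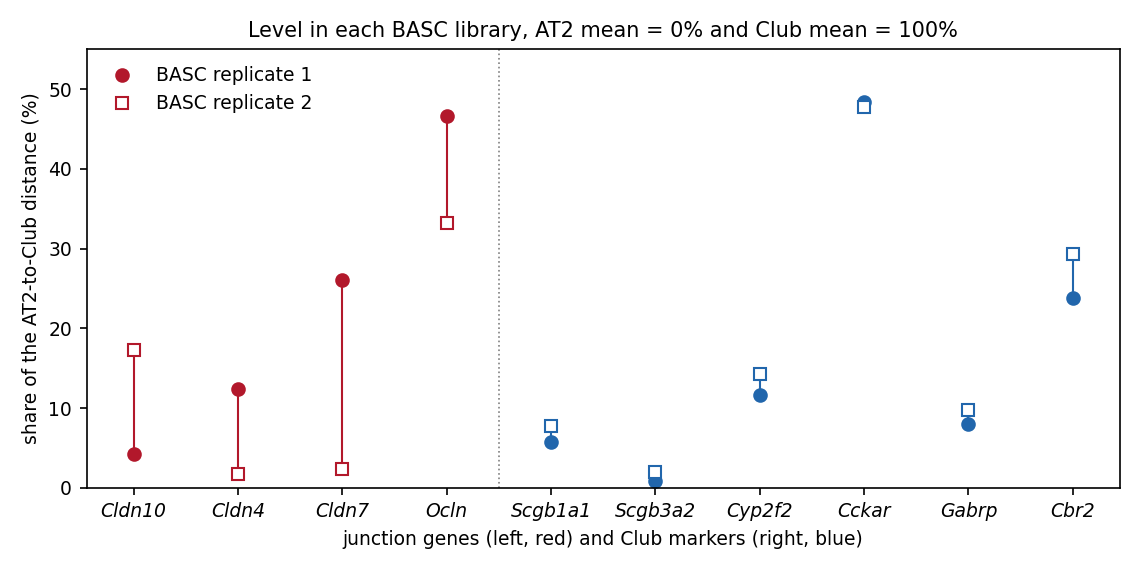
Level in each BASC library as a share of the distance from the AT2 mean (0%) to the Club mean (100%), for 4 junction genes (red, left) and 6 Club cell markers (blue, right); filled circles are BASC replicate 1 and open squares BASC replicate 2. Cldn10 lies at 4.19% and 17.2%, and Cldn4, at 12.4% and 1.74%, has the opposite order.

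Levels of different claudins can be compared only per length, so values were divided by the exon length of each gene in kilobases (GENCODE M21). The table held 15 protein-coding claudins. Their summed level was 4728 ± 403 per kb in BASC and 4635 ± 239 in AT2 cells, against 4861 ± 272 in Club cells (SD, n = 2 each), and the samples of the 3 groups overlapped. The claudins that made up this sum differed. Cldn3 was the largest in all 3, with 57.4% ± 3.8 in BASC and 56.2% ± 3.3 in AT2 cells, against 54.4% ± 1.2 in Club cells (SD, n = 2 each). Cldn18 held 28.1% ± 3.2 in BASC and 32.0% ± 1.1 in AT2 cells, against 0.786% ± 0.038 in Club cells. Cldn10 held 1.93% ± 1.34 in BASC and 0.247% ± 0.042 in AT2 cells, against 16.0% ± 0.8 in Club cells. Cldn7 held 8.47% ± 2.13 in BASC and 7.29% ± 1.69 in AT2 cells, against 15.2% ± 1.4 in Club cells, and Cldn4 held 0.453% ± 0.393 in BASC and 0.107% ± 0.011 in AT2 cells, against 4.68% ± 0.57 in Club cells. The exon length of every gene joins all its isoforms. The level per kb of Cldn18, and of other genes with more than 1 isoform such as Cldn10, may therefore be understated. Without length correction Cldn18 held the largest share of the sum in BASC (53.9%) and AT2 cells (58.7%), against 2.01% in Club cells. The sums without length correction were 10609 and 11322 in BASC and 10684 and 11844 in AT2 cells, against 8189 and 8742 in Club cells, so there both Club samples lay below all others. Per kb, the levels in BASC ran from Cldn3 at 2724 ± 411 over Cldn18 at 1324 ± 39, Tjp1 at 542 ± 70, F11r at 443 ± 21, Cldn7 at 396 ± 66 and Ocln at 202 ± 9 to Cldn12 at 96.7 ± 10.4, Cldn10 at 93.8 ± 71.0 and Cldn4 at 20.6 ± 16.7. Within that order, F11r and Cldn7 did not differ beyond their spread, nor did Cldn12 and Cldn10. In AT2 cells Cldn3 at 2600 ± 19 and Cldn18 at 1485 ± 126 again led, and Cldn10 at 11.4 ± 1.4 and Cldn4 at 4.96 ± 0.78 came last. In Club cells Cldn3 at 2645 ± 204 was followed by Cldn10 at 780 ± 83 and Cldn7 at 736 ± 25, which did not differ beyond their spread, and Cldn18 at 38.3 ± 4.0 came last.

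**Figure D4:**
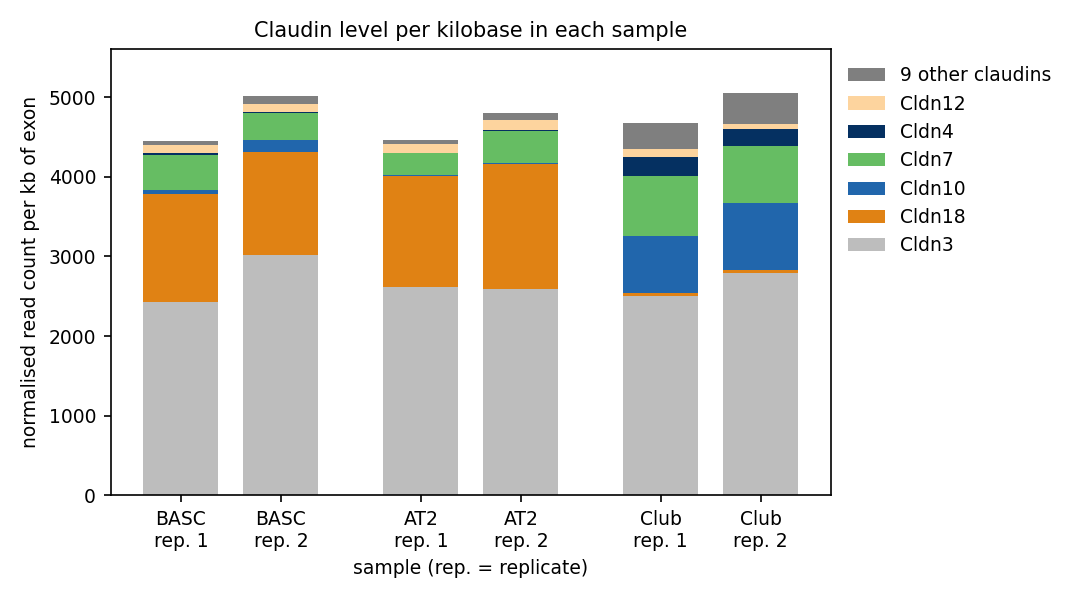
Normalised read count per kilobase of exon (y axis) of 15 claudins, stacked, in each of the 6 samples; colours are claudins. The stacks end between 4443 and 5053 in all samples, with a thick Cldn18 block above Cldn3 in BASC and AT2 samples, and a thin one there under thick Cldn10 and Cldn7 blocks in Club samples.

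Genes whose profile over the 6 samples lay closest to those of the 3 widest-ranging members were sought among 8806 protein-coding genes, by the distance between log2 profiles centred on their own means. Closest to Cldn18 were Rbpjl (distance 0.24) and the Wnt feedback gene Axin2 (0.43). Rbpjl had 2570 and 2875 in BASC, 3048 and 3751 in AT2 cells, against 73 and 88 in Club cells. Closest to Cldn10 were Cavin2, a coat protein gene of caveolae (0.41), the carbonyl reductase gene Cbr3 (1.14) and the flavin monooxygenase gene Fmo2 (1.31). Cavin2 had 173 and 435 in BASC, 43 and 39 in AT2 cells, against 3020 and 3525 in Club cells; the choice by likeness over all 6 samples fixes that it resembles Cldn10 in the BASC libraries too. Closest to Cldn4 were Ccdc39, a gene of motile cilia (1.16), Wdr66 (1.28) and the aldehyde dehydrogenase gene Aldh3a1 (1.37). Ccdc39 had 58 and 44 in BASC, 10 and 12 in AT2 cells, against 766 and 662 in Club cells, and it is 1 of the 7 ciliated cell markers.

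Of 50 further tight junction genes, 37 were tested. At an unadjusted p under 0.05, limma found 7 of the 37 between BASC and AT2 cells. The share of all genes at that cutoff was not calculated. After adjustment limma called none of the list between BASC and AT2 cells, where 0.632% of all genes were called. In BASC against Club cells 5 were higher and 2 were lower, which is 18.9% of the list beside 11.2% of all genes. In AT2 against Club cells 5 were higher and 6 were lower, which is 29.7% beside 18.1%. Its median log2 fold change was -0.13 for BASC against AT2, -0.19 for BASC against Club and 0.03 for AT2 against Club, beside 0.00, -0.10 and -0.10 for all genes. Esam, an adhesion molecule best known from endothelium, had 677 and 419 in BASC, 1087 and 964 in AT2 cells, against 2 and 3 in Club cells, and was higher in both comparisons (limma adjusted p = 0.000103 in BASC and 3.65e-05 in AT2 cells). It was also above the midpoint in BASC (log2 difference 3.16, limma adjusted p = 0.0120), a call that was lost without any 1 BASC or AT2 library. The 4 endothelial markers summed to 60 and 104 in BASC, 75 and 83 in AT2 cells, against 11 and 29 in Club cells. The part of endothelial cells in the Esam values was not tested. Cgn, which encodes the junction plaque protein cingulin, had 2841 and 2434 in BASC, 1892 and 1821 in AT2 cells, against 5377 and 6276 in Club cells, and was 2.21-fold lower in BASC (limma adjusted p = 0.00251) and 3.14-fold lower in AT2 cells (limma adjusted p = 0.000266). The polarity gene Pard3 was 1.89-fold higher in BASC and 2.11-fold higher in AT2 than in Club cells, and the guanine nucleotide exchange factor gene Arhgef2 was 1.81-fold and 1.82-fold higher. Igsf5, which encodes an adhesion molecule of the junction, was 1.69-fold and 2.28-fold higher in the same comparisons. The limma adjusted p was 0.0115 in BASC and 0.00364 in AT2 cells for Pard3, 0.0318 and 0.0200 for Arhgef2, and 0.0492 and 0.00633 for Igsf5. None of these 6 calls held without a variance trend, nor did that of Cgn in BASC. In BASC, leaving out 1 library lost the call of Pard3 (BASC replicate 1 or 2 or Club replicate 1), of Arhgef2 (any library but BASC replicate 2) and of Igsf5 (any BASC or Club library); in AT2 cells it lost that of Arhgef2 (AT2 replicate 1 or 2 or Club replicate 2).

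Other genes were called in 1 of the comparisons with Club cells, and none of these was called between BASC and AT2 cells. Prkci, a polarity kinase gene, was 1.45-fold lower in BASC (limma adjusted p = 0.0325). Magi3 was 1.62-fold higher in AT2 cells, Prkcz 2.06-fold lower and the ZO-3 gene Tjp3 1.93-fold lower. These 4 calls were lost without a variance trend and without 1 library: Prkci without any BASC or Club library, Magi3 without AT2 replicate 2 or Club replicate 1, Prkcz without AT2 replicate 1 or either Club library, and Tjp3 without AT2 replicate 1, Club replicate 1 or either BASC library. The claudin gene Cldn8 had 15 and 38 in BASC, 4 and 0 in AT2 cells, against 311 and 355 in Club cells (AT2 against Club, limma adjusted p = 0.00436). Jam2 had 15 and 16 in BASC, 2 and 41 in AT2 cells, against 236 and 324 in Club cells (AT2 against Club, limma adjusted p = 0.0430), a call lost without any library but AT2 replicate 2. The scaffold gene Mpdz was at 0 in both AT2 libraries and at 87 and 80 in Club cells, which is at least 30.4-fold lower in AT2 cells against a floor of 3 reads per library (limma adjusted p = 0.0101); it lay under the naming rule and was chosen after its values were seen.

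**Figure D5:**
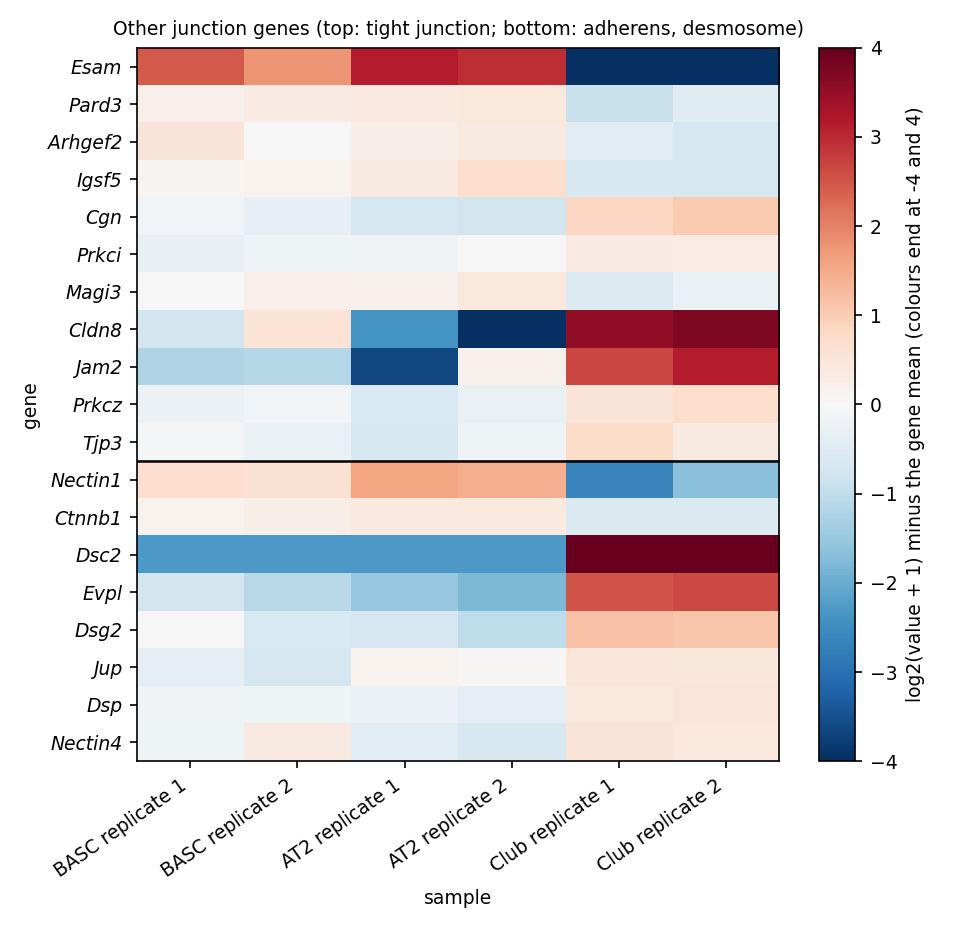
Other junction genes (rows) in the 6 samples (columns), as log2(value + 1) minus the mean of the gene; genes of tight junctions stand above the line and those of adherens junctions and desmosomes below it. Esam and Nectin1 are low in both Club samples, and Cldn8, Jam2, Dsc2 and Evpl are high in both.

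The adherens junction and the desmosome, the adhesive contacts below the tight junction, were measured by 20 further genes, of which 19 were tested. At an unadjusted p under 0.05, limma found 5 of the 19 between BASC and AT2 cells. The share of all genes at that cutoff was not calculated. After adjustment limma called none between BASC and AT2 cells, where 0.632% of all genes were called. Jup was called there (adjusted p = 0.0452) where only genes with at least 100 in 2 samples were tested, and Nectin1 (adjusted p = 0.0483) where only the 4 samples of both groups were fitted. Against Club cells 2 were higher and 5 lower in BASC, and 2 were higher and 5 lower in AT2 cells, which is 36.8% of the list each time beside 11.2% and 18.1% of all genes. Its median log2 fold change was 0.00 between BASC and AT2 cells, -0.16 between BASC and Club cells and -0.24 between AT2 and Club cells. Nectin1, an adherens junction receptor gene, had 1977 and 1903 in BASC, 3727 and 3402 in AT2 cells, against 198 and 394 in Club cells. It was 6.55-fold higher in BASC (limma adjusted p = 0.00146) and 12.0-fold higher in AT2 cells (adjusted p = 0.000232) than in Club cells. Ctnnb1, which encodes beta-catenin, was 1.70-fold and 1.96-fold higher. The desmosomal cadherin gene Dsc2 was at 0 in all BASC and AT2 libraries, against 118 and 112 in Club cells, and so was at least 34.0-fold lower in BASC and at least 41.8-fold lower in AT2 cells against a floor of 3 reads per library. Evpl, which encodes the desmosome-linked protein envoplakin, had 261 and 204 in BASC, 152 and 126 in AT2 cells, against 2540 and 2727 in Club cells. It was 11.3-fold lower in BASC (limma adjusted p = 0.000156) and 18.9-fold lower in AT2 cells (adjusted p = 3.77e-05) than in Club cells. Dsg2 was 2.66-fold lower in BASC and 3.97-fold lower in AT2 cells, and the plaque gene Dsp was 1.52-fold and 1.68-fold lower. In BASC the call of Dsg2 was lost without BASC replicate 2 or Club replicate 1 and that of Dsp without any BASC or Club library. Without a variance trend, Dsg2, Jup, Dsp and Ctnnb1 lost their calls in BASC, and Dsp, Ctnnb1 and Nectin4 in AT2 cells. Jup, which encodes plakoglobin, had 1841 and 1496 in BASC, 2654 and 2492 in AT2 cells, against 3374 and 3331 in Club cells. Its samples in BASC lay below those of both other groups, 2.01-fold lower than in Club cells (limma adjusted p = 0.00471) with a log2 difference of -0.82 from the midpoint (adjusted p = 0.0243), while its difference from AT2 cells was not called (adjusted p = 0.125). The call of Jup against the midpoint was lost without any 1 BASC or AT2 library. Evpl in BASC had a log2 difference of -1.39 from the midpoint (limma adjusted p = 0.0239), a call that was lost without any 1 of the 6 libraries. Nectin4 was 2.03-fold lower in AT2 than in Club cells (limma adjusted p = 0.0232), a call lost without any AT2 or Club library.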

How the data were processed

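RNA from 6 sorted samples of mouse lung, 2 each of BASC, AT2 and Club cells, was sequenced in bulk. The submitters' processing notes name STAR 2.4.0a and featureCounts 1.4.5-p1. The deposited signal values are normalised read counts per gene, given as whole numbers. The estimate of reads assumed that they were scaled by 1 factor per sample and rounded. The method of scaling, the annotation release and the strand setting are not stated in the labels or notes. Reads could not be recovered as whole numbers, so no count model was run.

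Values were fitted with limma 3.58.1 in R 4.3.3 as log2(value + 1), over all 6 samples with a variance trend, for 17721 of 22239 genes that reached 10 in 2 or more samples. This scale understates the change of low genes. P-values were adjusted by Benjamini-Hochberg over all tested genes, with a threshold of 0.05, and the fit was tested on simulated data. The comparisons were BASC against AT2, BASC against Club, AT2 against Club and BASC against their midpoint. The genes and lists were chosen with earlier results of these data known. All members were named, with up to 6 called genes per direction and comparison of 2 further junction lists, where the higher group averaged at least 100, and the 3 genes most like each of the 3 widest-ranging members. Some genes that this rule takes are not reported here. The cell type lists held AT2, Club, alveolar type 1, ciliated, basal, goblet, neuroendocrine, endothelial, immune and mesenchymal markers. Lengths were exon unions of GENCODE M21, whose gene coordinates were the same as those in the table for 75.9% of genes. Alternatives were other pseudocounts, filters, scalings and fits, a replicate block and leaving out each sample.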

Additional observations from a re-analysis of the deposited data

How the results depend on the processing

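Of 495 alternative values of the 36 member comparisons, 472 kept their side of the threshold, 16 lost a call, 7 gained one and 0 reversed a called direction; 22 changed sign in differences called in neither fit. The cause of these changes was not tested. Cldn18 kept its call against Club cells in BASC and AT2 cells under all 14 alternatives, as did Cldn10 and Cldn4 in AT2 cells. With 2 samples a group and 3 residual degrees of freedom, small differences could go uncalled. Some large ones were not called either, such as Cldn10 in BASC against AT2 cells, with a ratio of the means of 8.24.

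Genes called numbered 112 for BASC against AT2 (329 among genes with at least 100 in 2 samples, 176 with a pseudocount of 10, 3 to 112 leaving out 1 sample), 1983 for BASC against Club (1183 without a variance trend, 853 to 1888 leaving out 1 sample), 3212 for AT2 against Club (2028 without a trend, 1539 to 3291 leaving out 1 sample) and 286 against the midpoint (540 with the stricter filter, 4 to 278 leaving out 1 sample). Members called higher in BASC than in AT2 cells numbered 0, and 1 with the stricter filter. Members called higher than the midpoint numbered 1, and 0 to 1 leaving out 1 sample. Members called lower than in Club cells numbered 2 in BASC (0 without a trend, 1 to 3 leaving out 1 sample) and 4 in AT2 cells (2 without a trend, 2 to 4 leaving out 1 sample). Of the 37 further tight junction genes, 7 were called in BASC against Club (14 with the stricter filter, 11 with a pseudocount of 10, 1 without a trend, 2 to 9 leaving out 1 sample) and 11 in AT2 against Club (4 without a trend, 6 to 11 leaving out 1 sample). Of the 19 other junction genes, 7 were called in each (3 and 4 without a trend), and 0 in BASC against AT2 (1 with the stricter filter, 1 with only the 4 samples).

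Same-numbered replicates deviated from their group means with correlations of 0.0917, 0.0570 and 0.0674, so the numbers were not taken as pairs. With a replicate block, 120 genes were called between BASC and AT2, 1861 between BASC and Club, 3045 between AT2 and Club and 280 against the midpoint, and the member counts were 0, 3, 5 and 1. Quantile normalization moved the median log2 fold change of all genes from -0.10 to 0.01 in BASC against Club and from -0.10 to 0.03 in AT2 against Club.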
